A study of Danio rerio with 16 samples.

Results

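The genes that make, break down and bind retinoic acid were followed in the eyes and brains of zebrafish larvae. The set holds 10 protein-coding genes of the 31901 genes in each table: the retinoic acid hydroxylase genes cyp26a1, cyp26b1 and cyp26c1, the synthesis genes aldh1a2, aldh1a3 and rdh10a, the retinaldehyde reductase genes dhrs3a and dhrs3b, and the binding protein genes crabp1a and crabp2a. They were chosen by name, and all 10 symbols were found in the table of eyes and in the table of brains.

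The larvae were wild type, and the label of every group is 120 hours post fertilization (hpf). From 6 hpf on, the water held IPP (phenol isopropylated phosphate, an organophosphate flame retardant) at 0.2 uM with 0.02% dimethyl sulfoxide (DMSO), or 0.02% DMSO alone. The 4 groups are IPP eyes, DMSO eyes, IPP brains and DMSO brains, with 4 RNA-seq libraries each and 16 in all. Whether the libraries came from separate clutches or pools of larvae is not in the labels, so every p-value measures only the spread between these libraries.

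Retinoic acid is a small signal made from vitamin A. The enzyme encoded by rdh10a oxidizes retinol to retinaldehyde, Aldh1a enzymes oxidize retinaldehyde to retinoic acid, and Dhrs3 enzymes turn retinaldehyde back into retinol. Cyp26 enzymes hydroxylate retinoic acid and so clear it from a cell, while Crabp proteins bind it in the cytoplasm. In vertebrate eyes the signal is made at the dorsal and ventral poles of the retina and takes part in eye morphogenesis, and in the embryonic hindbrain its graded breakdown helps to set the domains of hox genes.

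Levels are FPKM, reads scaled by gene length and by a factor for each library, so they can be compared between genes. That factor was not the plain sum of the reads behind the values. It stood for 15.1 M reads in IPP brain 4, whose sum was 16.3 M. In DMSO eye 4 it stood for 13.0 M, with a sum of 12.0 M. Between 10.6 M and 12.5 M reads stood behind the values of an eye library, and between 9.62 M and 16.3 M behind those of a brain library. The dissections were checked on marker lists. The summed level of 21 retinal neuron and photoreceptor genes was 18515 to 20839 FPKM in IPP eyes and 17160 to 20521 FPKM in DMSO eyes. It was 69.3 to 234 FPKM in IPP brains and 82.7 to 119 FPKM in DMSO brains. Of the brain sums, pou4f2 alone held 45.9 to 66.5 FPKM under IPP and 69.7 to 81.2 FPKM under DMSO. The highest brain sum, 234 FPKM, was that of IPP brain 4, with pou4f2 at 45.9 FPKM. A list of 26 brain region and glia genes summed to 110 to 170 FPKM in IPP eyes and 120 to 141 FPKM in DMSO eyes. Its sums were 821 to 978 FPKM in IPP brains and 750 to 1006 FPKM in DMSO brains. Eye libraries also held RNA of skin genes in every library (2951 to 4339 FPKM over 33 genes in IPP eyes and 2566 to 3781 FPKM in DMSO eyes), and the brain libraries differed from each other in such RNA. These are whole dissected tissues, in which fewer cells of a type and less RNA per cell cannot be told apart.

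The most abundant breakdown gene was cyp26a1 in eyes, on average, and cyp26b1 in brains. The gene cyp26a1 averaged 14.3 ± 4.40 FPKM in IPP eyes and 22.5 ± 8.23 FPKM in DMSO eyes, but 0.411 ± 0.151 FPKM in IPP brains and 0.471 ± 0.129 FPKM in DMSO brains (SD, n = 4). A like contrast held for cyp26c1, at 10.8 ± 3.55 FPKM in IPP eyes and 10.4 ± 2.45 FPKM in DMSO eyes, and at 0.934 ± 0.439 FPKM in IPP brains and 0.895 ± 0.206 FPKM in DMSO brains. The order was turned round for cyp26b1, which averaged 1.68 ± 0.787 FPKM in IPP eyes and 2.42 ± 0.786 FPKM in DMSO eyes, and 15.1 ± 6.11 FPKM in IPP brains and 16.8 ± 1.96 FPKM in DMSO brains. The ratio of the eye mean to the brain mean was 34.9-fold under IPP and 47.7-fold under DMSO for cyp26a1, and 11.5-fold under IPP and 11.6-fold under DMSO for cyp26c1. For cyp26b1 the brain mean was 9.02-fold the eye mean under IPP and 6.94-fold under DMSO. For all 3 genes no eye library overlapped a brain library of the same treatment. The tables of eyes and brains may have been scaled separately, so these ratios are given without a test. The rebuilt reads were also divided by gene length and by their own library sum, a scale shared by both tissues. On that scale each ratio of the 10 genes kept its direction and moved by less than 1 SD.

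Expressed as a share of the summed cyp26 level, cyp26a1 made up 53.3 ± 8.62% in IPP eyes and 62.7 ± 5.59% in DMSO eyes, and cyp26c1 40.6 ± 9.41% in IPP eyes and 29.9 ± 3.91% in DMSO eyes. In the brain cyp26b1 made up 91.3 ± 3.603% in IPP libraries and 92.5 ± 0.598% in DMSO libraries. The library labelled IPP eye 3 was the only one of the 16 in which cyp26c1 was the most abundant of the 3 genes. The low genes rest on few reads: cyp26a1 had 5 to 16 reads per library in IPP brains and 7 to 13 in DMSO brains.

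**Figure D1:**
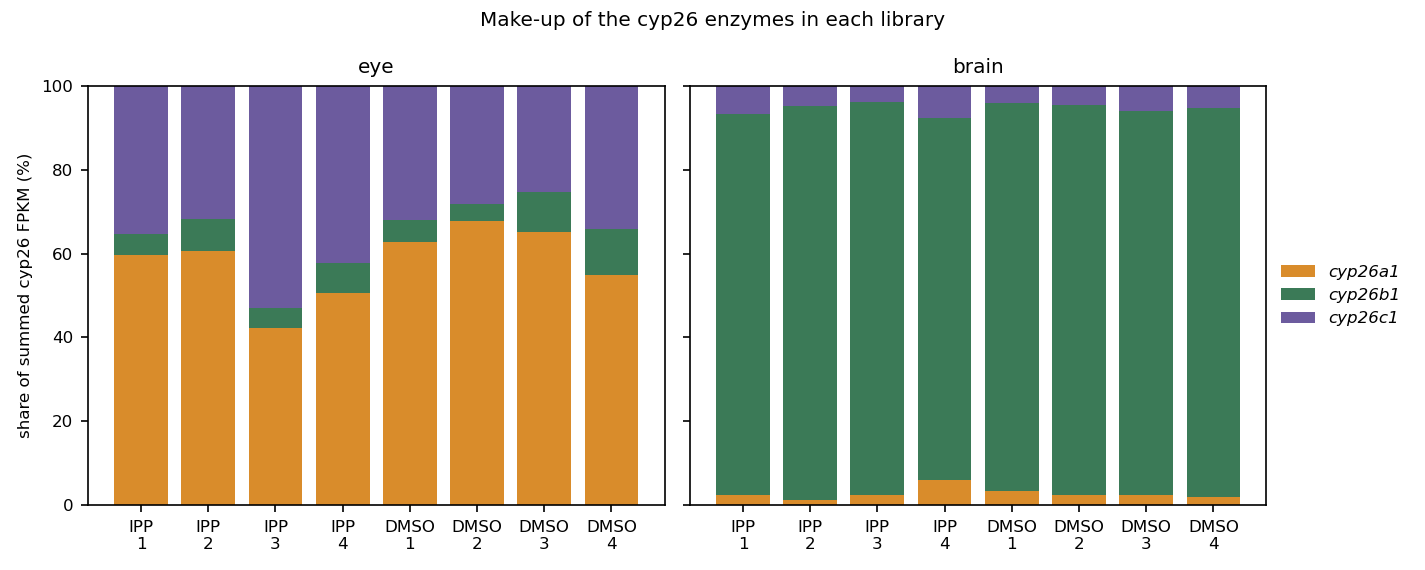
Share of each cyp26 gene in the summed FPKM of cyp26a1, cyp26b1 and cyp26c1, in percent, for each library of the eye (left) and the brain (right). In eyes cyp26a1 and cyp26c1 fill most of each bar (53.3% and 40.6% on average in IPP eyes, 62.7% and 29.9% in DMSO eyes), while in brains cyp26b1 fills 91.3% in IPP and 92.5% in DMSO libraries.

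The synthesis genes showed a smaller contrast between tissues. The ventral retinaldehyde dehydrogenase gene of the vertebrate retina, aldh1a3, stood 2.98-fold higher in eyes than in brains under IPP and 2.44-fold higher under DMSO, with no overlap of libraries. Its paralog aldh1a2, which marks the dorsal retina, was lower in eyes than in brains on average, with brain means 1.66-fold the eye means under IPP and 2.08-fold under DMSO, but the libraries of the tissues overlapped in both treatments. In eyes aldh1a3 thus made up 78.7 ± 2.02% of the summed aldh1a level under IPP and 82.6 ± 7.63% under DMSO, against 43.2 ± 15.98% in IPP brains and 48.6 ± 15.3% in DMSO brains. The retinol dehydrogenase gene rdh10a was the more even one, 1.58-fold higher in eyes than in brains under IPP and 1.63-fold under DMSO, and its paralog rdh10b contributed 8.69% of the pair in IPP eyes and 10.9% in DMSO eyes, and 13.1% in IPP brains and 15.9% in DMSO brains.

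Both dhrs3 genes were higher in eyes. The ratio of eye to brain was 1.80-fold under IPP and 2.56-fold under DMSO for dhrs3b, and 2.49-fold under IPP and 4.71-fold under DMSO for dhrs3a, whose IPP libraries overlapped between the tissues. The copy dhrs3b carried most of the signal of the pair in each tissue, with 84.9 ± 7.26% in IPP eyes, 85.0 ± 4.73% in DMSO eyes, 88.2 ± 6.87% in IPP brains and 91.7 ± 0.765% in DMSO brains. In DMSO brains dhrs3a had only 7 to 9 reads per library.

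The binding protein gene crabp1a was the most abundant of the 10 genes in both tissues. Its average over 8 libraries was 42.3 FPKM in eyes and 57.8 FPKM in brains, above 94.8% and 95.6% of the protein-coding genes, and in both tissues its lowest library lay above the highest library of the next gene, rdh10a. The other binding protein gene, crabp2a, was 5.58-fold higher in eyes than in brains under IPP and 5.21-fold under DMSO, without overlap. It supplied 26.8% of the summed crabp level in IPP eyes and 24.3% in DMSO eyes, and in the brain the second gene was crabp1b, with 12.9% in IPP brains and 10.9% in DMSO brains.

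Ranked by their mean over 8 libraries, the eye levels ran from crabp1a and rdh10a (28.7 FPKM) through cyp26a1 (18.4), crabp2a (16.5), cyp26c1 (10.6), dhrs3b (10.3) and aldh1a3 (8.30) to aldh1a2 (2.08), cyp26b1 (2.05) and dhrs3a (1.76 FPKM). Only 2 steps of that order separated all libraries of neighbouring genes, the one from crabp1a to rdh10a and the one from aldh1a3 to aldh1a2. In brains crabp1a and rdh10a (17.8 FPKM) were followed by cyp26b1 (15.96), dhrs3b (4.77), aldh1a2 (3.84), aldh1a3 (3.08), crabp2a (3.06), cyp26c1 (0.915), dhrs3a (0.528) and cyp26a1 (0.441 FPKM). There the steps below crabp1a, below cyp26b1 and below crabp2a separated the libraries.

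**Figure D2:**
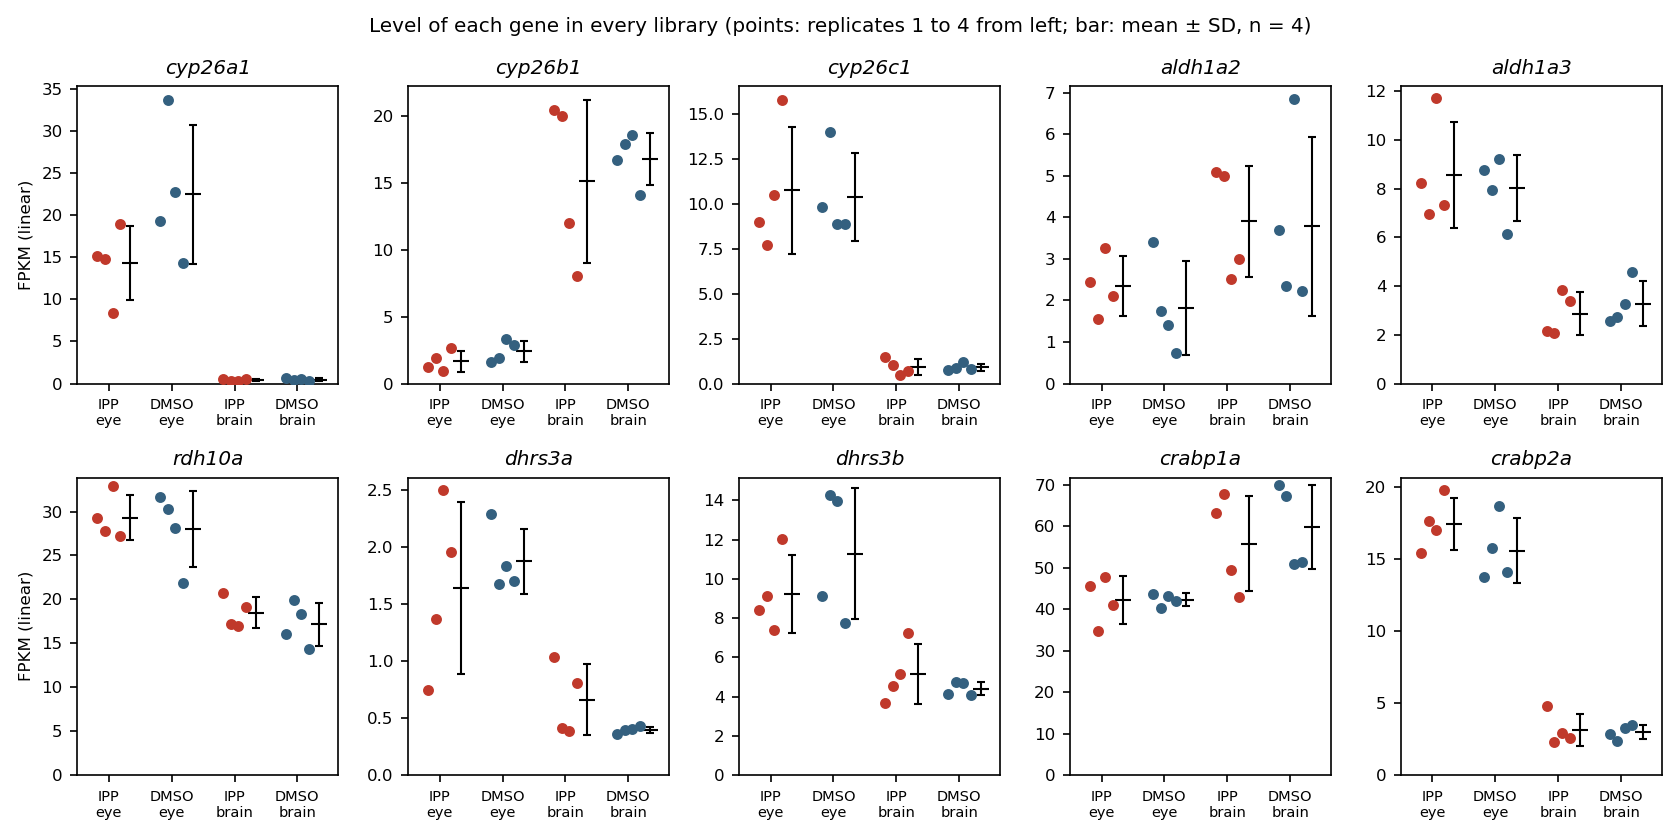
FPKM of each of the 10 genes in every library, by group (IPP eye, DMSO eye, IPP brain, DMSO brain), with linear axes from 0; points are libraries and bars mean ± SD, n = 4. For every gene IPP and DMSO points of a tissue overlap, while cyp26a1, cyp26c1 and crabp2a stand high in eyes and cyp26b1 in brains.

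The question of the exposure was whether IPP moved these genes. None of the 10 genes passed the test in eyes, and none of the 9 that could be tested passed in brains. On log2(FPKM + 0.5), limma called 0 of 17096 genes in eyes and 0 of 17533 in brains at an adjusted p under 0.05, which is 0% of either background. At an unadjusted p under 0.05 it called 1886 genes in eyes (11.0% of those tested) and 512 in brains (2.92%), and none of the 10 was among them. The groups did not overlap for 5.76% of the tested genes in eyes and 2.06% in brains, and overlapped for all 10 genes in both tissues. In eyes 5 of the 10 genes had a higher and 5 a lower estimate under IPP, with a median log2 fold change of 0.0070, beside -0.0037 over all genes tested. In brains 6 were higher and 3 lower, with a median of 0.021, beside 0.014.

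**Figure D3:**
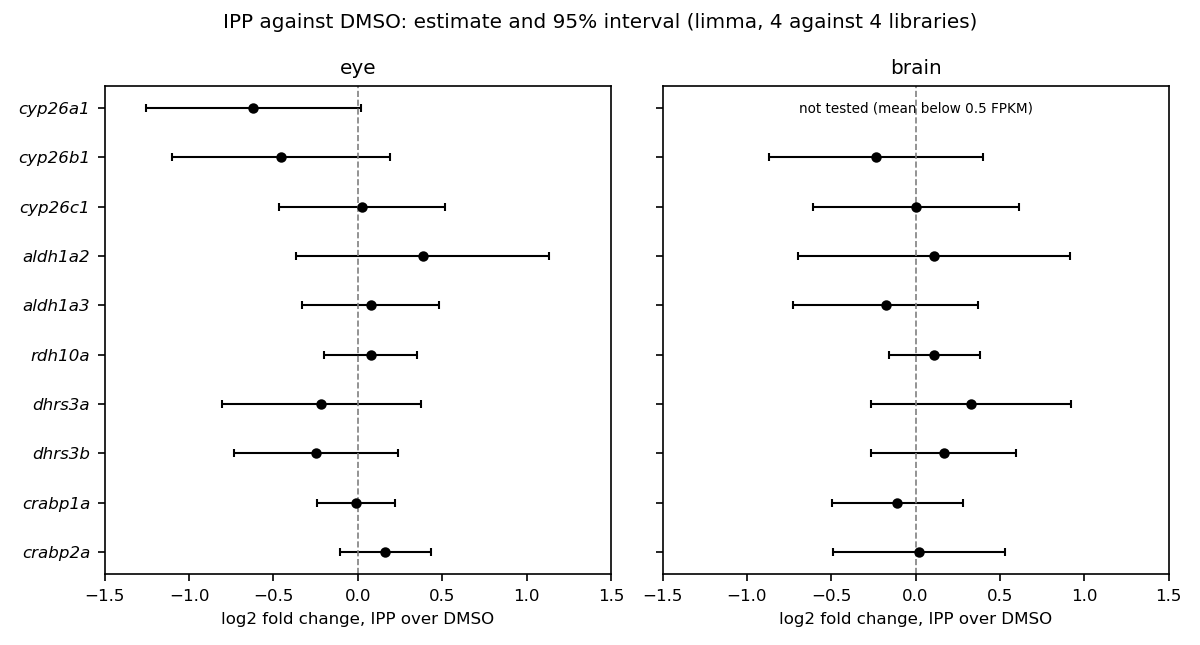
Log2 fold change of IPP over DMSO with its 95% interval from limma (4 against 4 libraries) for each gene in eyes (left) and brains (right). Every interval crosses 0; the interval of cyp26a1 in eyes runs from -1.26 to 0.016, and cyp26a1 was not tested in brains because its mean was below 0.5 FPKM.

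The largest estimate in the eye was that of cyp26a1. It stood at 15.2, 14.8, 8.36 and 19.0 FPKM in IPP eyes 1 to 4, against 19.2, 33.6, 22.8 and 14.2 FPKM in DMSO eyes 1 to 4. One IPP library lay below all DMSO libraries and the other 3 lay inside their range. The IPP mean was 0.65-fold the DMSO mean on the log scale of the test (log2 fold change -0.62, SE 0.28, 95% interval of the fold 0.418 to 1.01). This did not pass, with a limma adjusted p = 0.457 and an exact permutation p = 0.171 on the same scale, two-sided over 70 arrangements, of which 0.0286 is the smallest p possible. The unadjusted limma p was 0.055. In brains, below the level for testing, it stood at 0.520, 0.271, 0.291 and 0.562 FPKM in IPP libraries, against 0.616, 0.468, 0.495 and 0.304 FPKM in DMSO libraries.

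The hydroxylase gene cyp26b1 stood at 1.23, 1.88, 0.903 and 2.69 FPKM in IPP eyes, against 1.61, 1.93, 3.30 and 2.85 FPKM in DMSO eyes. IPP eyes 1 and 3 lay below all DMSO eyes, and the estimate was -0.46 (SE 0.29, limma adjusted p = 0.568). In brains, where it is the main hydroxylase gene, it stood at 20.4, 20.01, 11.97 and 8.06 FPKM in IPP libraries, against 16.7, 17.9, 18.6 and 14.1 FPKM in DMSO libraries. The IPP libraries lay on both sides of the DMSO libraries, 2 above all of them and 2 below, so that the SD was 6.11 FPKM under IPP and 1.96 FPKM under DMSO. The log2 fold change was -0.24 (95% interval -0.87 to 0.40).

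The third hydroxylase gene, cyp26c1, stood at 9.004, 7.73, 10.5 and 15.8 FPKM in IPP eyes, against 9.82, 13.99, 8.86 and 8.86 FPKM in DMSO eyes. Here a single high library stood in each group, and the estimate was 0.024 (95% interval -0.47 to 0.52). In brains its level was 0.482 to 1.498 FPKM under IPP and 0.729 to 1.19 FPKM under DMSO, with an estimate of 0.00016 (-0.61 to 0.61).

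Of the synthesis genes, aldh1a2 stood at 2.45, 1.56, 3.27 and 2.09 FPKM in IPP eyes, against 3.40, 1.75, 1.42 and 0.723 FPKM in DMSO eyes. Every IPP library lay inside the DMSO range, which was the wider one, and the estimate was 0.38 (95% interval -0.36 to 1.13). The DMSO eye 1 library alone exceeded all IPP libraries. With each library left out in turn the estimate ran from 0.12 without DMSO eye 4 to 0.67 without DMSO eye 1. Without both DMSO eye 1 and IPP eye 2, the eye libraries with the most liver and gut RNA of their groups and a subset chosen after seeing the data, it was 0.82 (limma adjusted p = 0.674). In brains aldh1a2 stood at 5.09, 4.996, 2.52 and 2.99 FPKM under IPP, against 3.70, 2.35, 6.85 and 2.23 FPKM under DMSO, with an estimate of 0.11 (-0.70 to 0.91).

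The gene aldh1a3 stood at 8.25, 6.96, 11.7 and 7.34 FPKM in IPP eyes, against 8.78, 7.95, 9.21 and 6.16 FPKM in DMSO eyes, and IPP eye 3 was the only library above the DMSO range. Its estimate was 0.076 (95% interval -0.33 to 0.48) in eyes and -0.18 (-0.72 to 0.37) in brains. For rdh10a the intervals were the narrowest of the synthesis genes. It stood at 29.3, 27.8, 32.95 and 27.2 FPKM in IPP eyes, against 31.7, 30.3, 28.1 and 21.9 FPKM in DMSO eyes, and at 20.7, 17.2, 17.0 and 19.1 FPKM in IPP brains, against 16.04, 19.9, 18.3 and 14.4 FPKM in DMSO brains. On the fold scale its 95% interval ran from 0.870 to 1.28 in eyes and from 0.895 to 1.302 in brains.

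The reductase gene dhrs3b stood at 8.43, 9.11, 7.39 and 12.04 FPKM in IPP eyes, against 9.11, 14.3, 13.97 and 7.75 FPKM in DMSO eyes. The 2 highest libraries were both DMSO, and the estimate was -0.25 (95% interval -0.73 to 0.24). In brains it stood at 3.66, 4.54, 5.14 and 7.22 FPKM under IPP, against 4.12, 4.74, 4.68 and 4.09 FPKM under DMSO, where the 4 libraries lay close together. IPP brain 4 was the highest of the 8, and the estimate was 0.17 (-0.27 to 0.60).

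Its paralog dhrs3a stood at 0.744, 1.36, 2.4999 and 1.95 FPKM in IPP eyes, against 2.29, 1.67, 1.83 and 1.70 FPKM in DMSO eyes, so that 2 IPP libraries lay below and 1 above all DMSO libraries. In brains it stood at 1.03, 0.414, 0.388 and 0.805 FPKM under IPP, against 0.362, 0.397, 0.405 and 0.426 FPKM under DMSO. IPP brains 1 and 4 exceeded all DMSO brains, but the counts behind these values were 7 to 21 reads under IPP and 7 to 9 under DMSO. The estimates were -0.22 (95% interval -0.81 to 0.38) in eyes and 0.33 (-0.26 to 0.92) in brains.

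The binding protein gene crabp1a had the tightest estimate of the eye. It stood at 45.6, 34.8, 47.7 and 41.0 FPKM in IPP eyes, against 43.7, 40.3, 43.3 and 41.9 FPKM in DMSO eyes, and the means of 42.3 FPKM were alike in both groups (SD 5.75 FPKM under IPP and 1.54 FPKM under DMSO). Its fold interval was 0.845 to 1.17. In brains it stood at 63.1, 67.7, 49.4 and 43.0 FPKM under IPP, against 69.9, 67.3, 51.0 and 51.3 FPKM under DMSO, with 2 high and 2 low libraries in each group and an estimate of -0.11 (95% interval -0.50 to 0.28).

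For crabp2a the values were 15.4, 17.6, 17.0 and 19.8 FPKM in IPP eyes, against 13.7, 15.8, 18.7 and 14.1 FPKM in DMSO eyes. IPP eye 4 was the highest library, and the estimate was 0.16 (95% interval -0.11 to 0.44). In brains the range was 2.296 to 4.79 FPKM under IPP and 2.39 to 3.48 FPKM under DMSO, with an estimate of 0.021 (-0.49 to 0.53).

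Whether IPP acted differently in eye and brain was tested as the eye effect minus the brain effect. Of 15856 genes tested, limma called 0 (0%) at an adjusted p under 0.05 and 640 (4.04%) at an unadjusted p under 0.05. None of the 9 genes tested here was called at either level, and 5 differences were above and 4 below 0. The largest were those of dhrs3a, at -0.55 (SE 0.36, 95% interval -1.31 to 0.21), and dhrs3b, at -0.42 (SE 0.30, -1.06 to 0.23). Both had lower estimates under IPP in eyes and higher ones in brains, and neither passed (limma adjusted p = 1.0 for both). The other 7 lay between -0.22 and 0.28.

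Levels of pigment cell, lens and ganglion cell markers differed between eye libraries, in part along with cyp26a1 and dhrs3b. The summed level of a list of pigment epithelium and pigment cell genes, of which 15 of 16 found in the table were tested, was 569, 750, 600 and 1052 FPKM in IPP eyes 1 to 4, and 1027, 975, 1136 and 766 FPKM in DMSO eyes 1 to 4. IPP eye 4 and DMSO eyes 1 to 3 had the 4 highest sums and also the 4 highest values of cyp26a1. The lens list, 25 of 26 genes tested, was highest in the same 4 libraries, at 55788 FPKM in IPP eye 4 and 58485, 63040 and 66379 FPKM in DMSO eyes 1 to 3. Its other values were 41922, 48474 and 52458 FPKM in IPP eyes 1 to 3 and 40169 FPKM in DMSO eye 4. No gene of either list found in the table was at 0 in all eye libraries. The 3 highest values of dhrs3b, in IPP eye 4 and DMSO eyes 2 and 3, were also among these libraries. Of the 21 retinal neuron and photoreceptor genes, 15 had a higher and 6 a lower estimate in IPP eyes (median log2 fold change 0.07). At an unadjusted limma p under 0.05, 1 of them was higher and 2 were lower, beside 11.0% of all genes tested in eyes. Groups did not overlap for 5.76% of all genes tested in eyes. On that list the ganglion cell genes isl2b and pou4f2, both transcription factors, were lower in every IPP eye than in any DMSO eye. The first stood at 35.0, 28.8, 28.5 and 29.7 FPKM in IPP eyes, against 51.3, 65.5, 52.4 and 45.3 FPKM in DMSO eyes (log2 fold change -0.80, limma adjusted p = 0.189). The second stood at 27.5, 27.7, 23.2 and 29.5 FPKM in IPP eyes, against 48.6, 51.5, 41.6 and 34.4 FPKM in DMSO eyes (-0.68, limma adjusted p = 0.269). For pou4f2 this was not particular to eyes. It was also lower in every IPP brain (45.9 to 66.5 FPKM) than in any DMSO brain (69.7 to 81.2 FPKM). Groups did not overlap for 2.06% of all genes tested in brains. Unlike isl2b and pou4f2, cyp26a1 in eyes had 3 of its 4 IPP libraries inside the DMSO range. Other lists leaned to one side in IPP eyes too. Estimates were higher for 30 of 35 cartilage, bone and periocular mesenchyme genes, 22 of 29 skin genes and 20 of 25 liver and gut genes. They were lower for 14 of 16 skeletal muscle genes. The part of these tissues and cells in the estimates of the 10 genes was not tested.

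**Figure D4:**
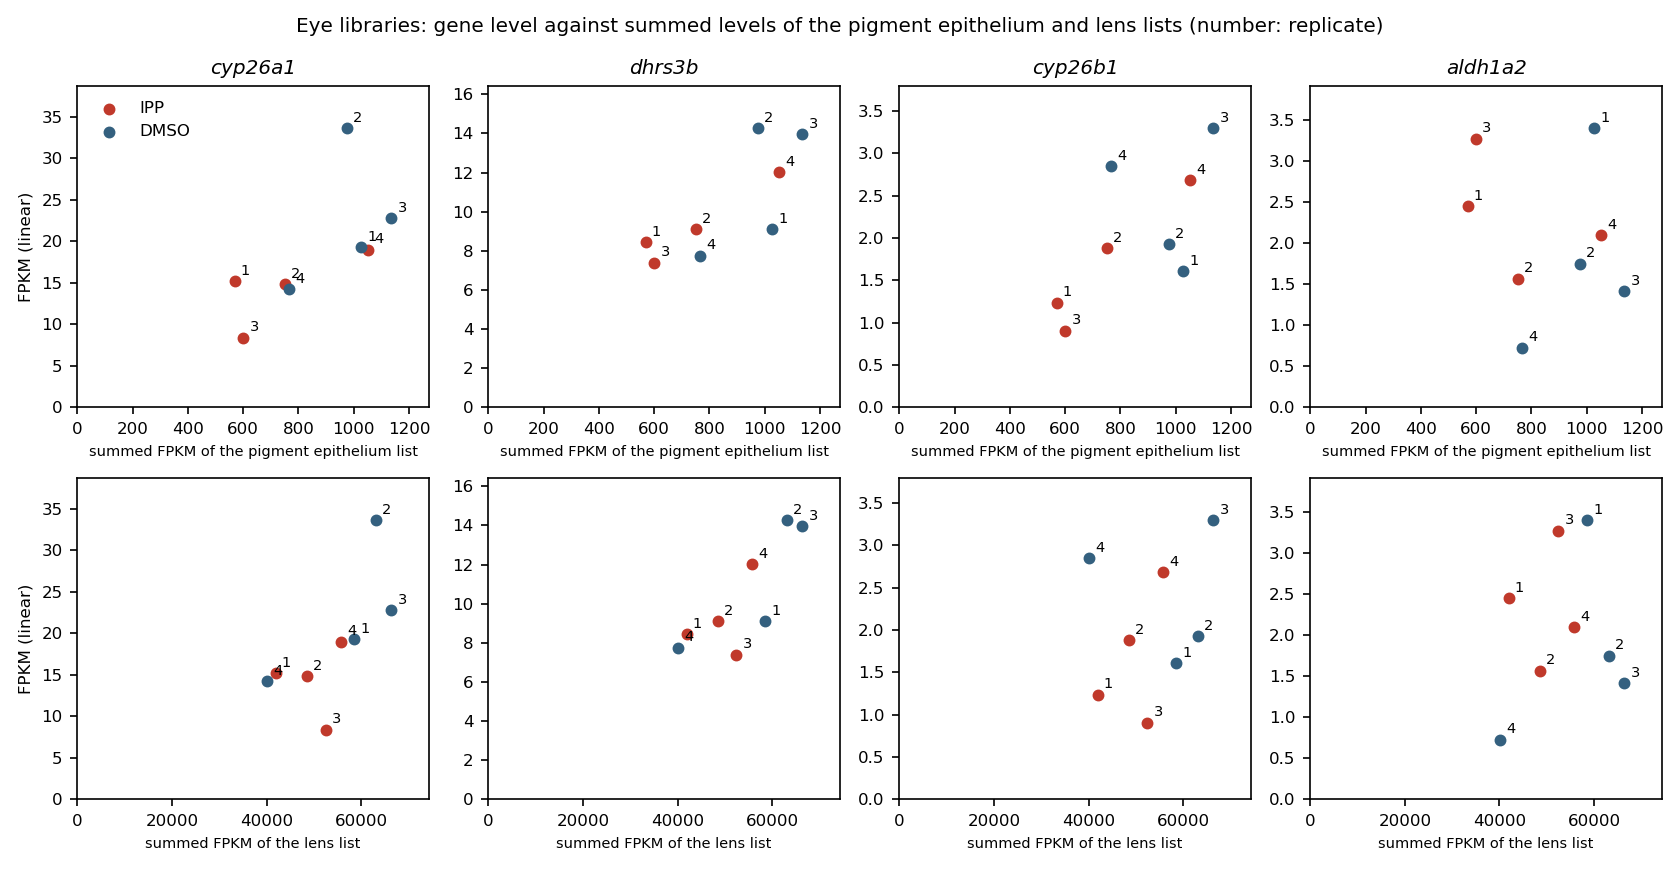
FPKM of cyp26a1, dhrs3b, cyp26b1 and aldh1a2 in each eye library (vertical, linear) against the summed FPKM of the pigment epithelium and pigment cell list (top) and of the lens list (bottom); numbers are replicates. The 4 libraries with sums of 975 FPKM or more for the first list, IPP 4 and DMSO 1 to 3, hold the 4 highest cyp26a1 values, 19.0 to 33.6 FPKM.

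Of 12027 protein-coding genes that averaged 1 FPKM or more in eyes, the pattern most like that of cyp26a1 over the 8 eye libraries was that of zc2hc1a (Pearson r = 0.98), followed by isl2a, which encodes a LIM homeodomain factor of neurons (r = 0.97), and faf2 (r = 0.97). These coefficients describe 8 libraries that share the tissue and its treatment. In IPP eyes isl2a stood at 13.0, 13.2, 10.01 and 14.4 FPKM, and in DMSO eyes at 16.4, 21.1, 17.1 and 14.3 FPKM. In brains, where cyp26a1 has at most 16 reads, the nearest patterns of 12323 genes were those of azin1a (r = 0.96), aplp2 (r = 0.94) and bgnb (r = 0.94). In both tissues these are the highest coefficients of all genes compared, over 8 libraries. Such a choice alone gives high values, and no test was made of them.

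Brain libraries differed from each other in RNA of other regions and tissues, and cyp26b1, crabp1a and aldh1a3 differed along with them. The summed level of 14 hox genes, which are transcribed in the hindbrain and spinal cord, was 94.6, 90.7, 32.0 and 36.3 FPKM in IPP brains 1 to 4, and 73.1, 86.2, 72.3 and 47.1 FPKM in DMSO brains 1 to 4. The summed level of the skin list, 29 of 33 genes tested and epcam at 0 in every brain library, was 51.3, 59.0, 2228 and 1985 FPKM in IPP brains and 88.2, 339, 560 and 2149 FPKM in DMSO brains. IPP brains 3 and 4 and DMSO brain 4 thus had the least hox and the most skin RNA. They also had the highest sums of the skeletal muscle list. These were 255 and 1066 FPKM in IPP brains 3 and 4, and 1199 FPKM in DMSO brain 4. On the cartilage, bone and periocular mesenchyme list the same libraries were highest, at 1220, 1285 and 1018 FPKM in that order. DMSO brain 3 came next on both lists, at 206 FPKM and 703 FPKM.

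The same 3 libraries had the 3 lowest values of cyp26b1 (11.97 and 8.06 FPKM in IPP brains 3 and 4, 14.1 FPKM in DMSO brain 4) and the 3 highest of aldh1a3 (3.85 and 3.39 FPKM in IPP brains 3 and 4, 4.59 FPKM in DMSO brain 4). For crabp1a they held 49.4 and 43.0 FPKM in IPP brains and 51.3 FPKM in DMSO brain 4, with DMSO brain 3 at 51.0 FPKM beside them. Without the 3 libraries, an alternative chosen after seeing the data, the log2 fold change of cyp26b1 was 0.19 in place of -0.24 (limma adjusted p = 0.702), that of crabp1a 0.073 in place of -0.11, that of aldh1a3 -0.35 in place of -0.18, and that of dhrs3b -0.13 in place of 0.17. That left IPP brains 1 and 2 and DMSO brains 1 to 3. These IPP brains lay above all DMSO brains for cyp26b1 and below all of them for aldh1a3. The choice of libraries thus fixed the sign of both estimates. The part of skin, muscle, cartilage, bone or mesenchyme RNA, or of regions that express hox genes, in the levels and estimates given here was not tested.

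Liver and gut genes set apart another pair of brain libraries, with sums of 19949 FPKM in IPP brain 4 and 7079 FPKM in DMSO brain 1, against 38.5 to 123 FPKM in the other IPP brains and 82.2 to 454 FPKM in the other DMSO brains. All 35 genes of that list were found in the brain table, and none was at 0 in all brain libraries. Without that pair the estimate of cyp26b1 was 0.022, that of dhrs3b -0.025 and that of crabp1a 0.087. IPP brain 4 was left out of both subsets, so they are not separate checks. Leaving out 1 library at a time already brought the estimate of cyp26b1 up to 0.023 and that of dhrs3b down to 0.0026. None of the 10 genes was called in either subset.

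**Figure D5:**
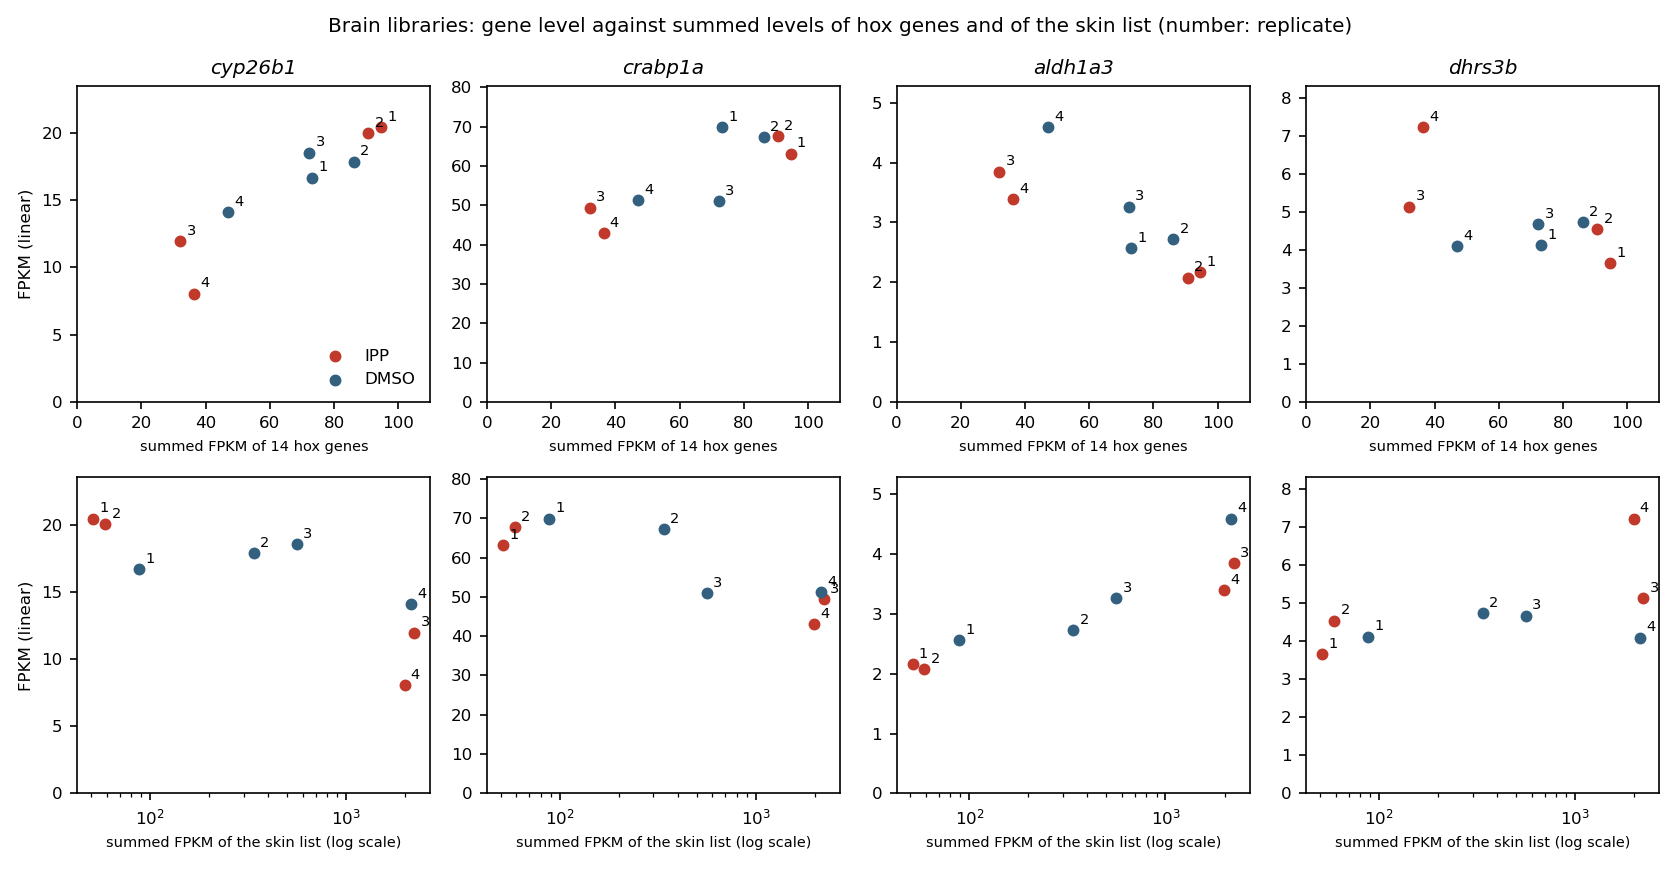
FPKM of cyp26b1, crabp1a, aldh1a3 and dhrs3b in each brain library (vertical, linear) against the summed FPKM of 14 hox genes (top, linear) and of the skin list (bottom, log scale); numbers are replicates. IPP brains 3 and 4 and DMSO brain 4, at 32.0 to 47.1 FPKM of hox genes and 1985 to 2228 FPKM of skin genes, hold the lowest cyp26b1 and the highest aldh1a3 values.

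The rest of the pathway was followed on lists, and no gene of any list was called in either tissue. Of 19 tested genes for retinoid uptake, storage and the visual cycle, 5 had a higher and 14 a lower estimate in IPP eyes (median log2 fold change -0.17), and 11 were higher and 8 lower in IPP brains (median 0.07). In eyes 1 of the 19 had an unadjusted p under 0.05, beside 11.0% of all genes tested in eyes. This gene was rlbp1b, a retinaldehyde carrier of pigment epithelium, at 18.3 ± 4.195 FPKM in IPP eyes and 28.4 ± 3.11 FPKM in DMSO eyes (-0.64, limma adjusted p = 0.303). The other named genes of the list in eyes, rpe65a, rdh12l and rgrb, had estimates of -0.41, -0.35 and -0.15. Both rlbp1b and rpe65a are also on the list of pigment epithelium and pigment cell genes. Of 15 tested genes of that second list, 2 were higher and 13 lower in IPP eyes (median -0.43), 5 at an unadjusted p under 0.05. The part of pigment tissue in the visual cycle estimates was not tested. In brains rpe65a, the retinoid isomerase gene, had 2.61 ± 0.642 FPKM under IPP and 1.45 ± 0.350 FPKM under DMSO (0.67, limma adjusted p = 1.0).

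Among the other retinoic acid enzymes and binding proteins, 4 of 12 genes were higher and 8 lower in IPP eyes (median -0.09), and 8 of 13 were higher and 5 lower in IPP brains (median 0.06), with none at an unadjusted p under 0.05. In eyes adh5, an alcohol dehydrogenase gene, stood at 16.8 ± 2.77 FPKM under IPP and 13.7 ± 0.832 FPKM under DMSO (0.27), and aox5, an aldehyde oxidase gene, at 2.84 ± 0.699 FPKM under IPP and 2.17 ± 0.309 FPKM under DMSO (0.31). The second copy of the retinol dehydrogenase, rdh10b, had estimates of -0.25 in eyes and -0.22 in brains. In brains dhrs9, a short-chain dehydrogenase gene, stood at 37.4 FPKM in IPP brain 4 and 14.4 FPKM in DMSO brain 1, the libraries with the liver and gut RNA, and at 2.05 to 2.83 FPKM in the other 6.

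Receptor and coregulator genes were split evenly in eyes, with 7 of 14 higher and 7 lower (median 0.01), and 4 of 14 were higher in IPP brains (median -0.07). In eyes rxrba, a retinoid X receptor gene, stood at 24.2 ± 1.83 FPKM under IPP and 17.3 ± 5.25 FPKM under DMSO (0.53, limma adjusted p = 0.396). It was the 1 gene of the 14 with an unadjusted p under 0.05, beside 11.0% of all genes tested in eyes. The retinoic acid receptor gene raraa had 19.0 ± 2.197 FPKM in IPP eyes and 23.7 ± 4.36 FPKM in DMSO eyes (-0.30, limma adjusted p = 0.462). In brains rxraa had 8.63 ± 0.415 FPKM under IPP and 10.3 ± 1.32 FPKM under DMSO (-0.24, limma adjusted p = 1.0).

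Genes known to respond to retinoic acid in vertebrate embryos had more lower than higher estimates in both tissues. In IPP eyes 9 of 13 were lower (median -0.18) and in IPP brains 14 of 21 (median -0.12), none at an unadjusted p under 0.05. Over all genes tested, 8637 of 17096 were lower in eyes and 8217 of 17533 in brains. Of the 29 genes of the list found, 14 were the hox genes whose sums differed between brain libraries. The part of that difference in the brain tally was not tested. In eyes the homeobox gene meis1b had 34.8 ± 6.97 FPKM under IPP and 40.5 ± 3.25 FPKM under DMSO (-0.24), and the nuclear receptor gene nr2f1a 42.5 ± 7.33 FPKM under IPP and 47.8 ± 6.34 FPKM under DMSO (-0.18). The transglutaminase gene tgm2b lay the other way, at 5.25 ± 0.209 FPKM in IPP eyes and 4.0998 ± 1.07 FPKM in DMSO eyes (0.36). In brains hoxb5a had 6.21 ± 5.10 FPKM under IPP and 10.2 ± 4.68 FPKM under DMSO (-1.18, limma adjusted p = 1.0), with the spread between libraries described above for hox genes.

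Dorsal and ventral patterning genes of the retina, the territories of aldh1a2 and aldh1a3, numbered 4 higher and 10 lower of 14 in IPP eyes (median -0.11). The ventral homeobox gene vax2 stood at 1.88 ± 0.620 FPKM in IPP eyes and 0.946 ± 1.02 FPKM in DMSO eyes (0.95, limma adjusted p = 0.471). Its SD in DMSO eyes exceeded its mean, at a level near the 0.5 FPKM needed for testing. The BMP pseudoreceptor gene bambia had 16.5 ± 2.98 FPKM in IPP eyes and 21.6 ± 2.86 FPKM in DMSO eyes (-0.39, limma adjusted p = 0.383). It was the 1 gene of the 14 with an unadjusted p under 0.05, beside 11.0% of all genes tested in eyes. The dorsal T-box gene tbx2a had 3.41 ± 0.679 FPKM under IPP and 4.40 ± 0.921 FPKM under DMSO (-0.32).

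By the coordinates of the authors' tables (genome build not given in the sources used here), aldh1a3 (chr7:9721385-9803154), cyp26b1 (chr7:25323742-25348597) and aldh1a2 (chr7:30326184-30367650) lie on one chromosome, and the other 7 genes each on another. In these tables cyp26b1 overlaps a processed transcript of the opposite strand and cyp26c1 an antisense gene. Whether strand was used in counting is unclear, since the labels describe library preparations with and without strand. The overlapping genes had few reads, 23 beside 5924 for cyp26b1 over the 8 brain libraries and 0 beside 3913 for cyp26c1 over the 8 eye libraries. The other 8 genes overlap no annotated gene. Reads that fit both copies of the pairs dhrs3a and dhrs3b, or crabp1a and crabp1b, could be split between them in ways that the sources used here do not state.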

How the data were processed

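RNA of dissected eyes and brains was sequenced, and the authors deposited 1 table of FPKM values per tissue with gene lengths and coordinates. Per the submitters' processing notes, tools included featureCounts 1.5.0-p3 and HISAT2 2.0.5. The FPKM calculation, genome build and annotation were not given in the sources used here. FPKM times gene length gave whole reads in 100% of values, to within 0.01 read, and these sums are the depths given. With 5 to 16 reads per library, cyp26a1 in brain carries large counting error.

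Within a tissue, limma 3.58.1 (R 4.3.3; lmFit, then eBayes with trend) compared IPP with DMSO on log2(FPKM + 0.5) for genes averaging 0.5 FPKM or more, two-sided, with Benjamini-Hochberg adjustment over all genes tested and a threshold of 0.05. Fold changes are on that scale, which understates changes of low genes. The rebuilt reads were tested only as an alternative (limma-voom). The difference between tissues was an interaction contrast over genes tested in both. Tests were tried on simulated data in which each gene varied on its own. In the brain libraries many genes differed together, so those trials do not show what changes could be detected here. The exact permutation test used the same log2 values.

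The members and lists were chosen with earlier results of these data known. From each list up to 4 genes per tissue, averaging 1 FPKM or more and with the smallest unadjusted p, could be named, of which some are given; the sums of hox and marker genes, and dhrs9 per library, were set beside the results after their values were seen. Alternatives were a replicate block, limma-voom, robust eBayes, quantile normalization, scaling by median ratios, filtering at 2 FPKM or not at all, pseudocounts of 1 or 0.1, and leaving out libraries. No library was left out of the main results.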

Additional observations from a re-analysis of the deposited data

Results flagged for a closer look

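Within the groups of 4 libraries, 0 of the 40 sets of values (10 genes in 4 groups) held a library that Dixon's test marked as far from the other 3, while chance marks about 1 in 20.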

How the results depend on the processing

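No member passed the threshold in any comparison under any alternative run. The lowest limma adjusted p was 0.181 in eyes (cyp26a1 without DMSO eye 4, log2 fold change -0.81), 0.702 in brains and 0.692 for the difference between tissues. The estimate of cyp26a1 in eyes was negative throughout, -0.81 to -0.39 with each library left out in turn. Its unadjusted p was under 0.05 with limma-voom (0.048) and, by limma, without DMSO eye 4 (0.017) or IPP eye 4 (0.030). In the other alternatives it was above 0.05. By limma, cyp26b1 in eyes was under 0.05 unadjusted without IPP eye 4 (0.038), and aldh1a2 without DMSO eye 1 (0.040). The number of genes called over all genes ranged from 0 to 3 in eyes when a library was left out (3 without DMSO eye 4, 1 without IPP eye 1); it was 1 in brains without DMSO brain 1 and IPP brain 4, 1 without DMSO brain 4, IPP brain 3 and IPP brain 4, and 1 for the difference between tissues in the second of these subsets. The deviations of same-numbered libraries from their group means correlated at -0.088 to 0.039 between IPP and DMSO eyes, -0.094 to 0.33 between IPP and DMSO brains, 0.21 to 0.38 between IPP eyes and brains, and -0.14 to 0.44 between DMSO eyes and brains. Same-numbered IPP eyes and brains thus had coefficients above 0 in all 4 pairs, and DMSO eyes and brains in 3 of 4. Brains of unlike treatment also reached 0.33. Libraries of different numbers were not compared, so these values cannot show whether libraries were paired. No label pairs the libraries. With the replicate number as a block in each tissue, and with same-numbered eye and brain libraries paired for the difference between tissues, 0 genes and 0 members were called.

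Several estimates changed sign, among them that of cyp26b1 in brains, which was -0.24 in the main fit. In eyes crabp1a was 0.022 under quantile normalization and 0.095 without DMSO eye 1 and IPP eye 2. In brains cyp26c1 was -0.023 with a pseudocount of 0.1, -0.11 under quantile normalization and -0.15 with limma-voom, and crabp2a -0.073 under quantile normalization and -0.013 with limma-voom. Without DMSO brain 1 and IPP brain 4, or without DMSO brain 4, IPP brain 3 and IPP brain 4, the brain estimate was 0.022 or 0.19 for cyp26b1, -0.025 or -0.13 for dhrs3b and 0.087 or 0.073 for crabp1a; the difference between tissues was 0.010 or 0.012 for rdh10a and -0.097 or -0.082 for crabp1a. That difference was -0.28 for cyp26c1 and -0.055 for crabp2a in that second subset, and 0.051 for rdh10a without DMSO eye 1 and IPP eye 2. The cause of these changes was not tested.

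Leaving out each library in turn gave ranges across 0 in eyes for crabp1a (-0.071 to 0.080), cyp26c1 (-0.17 to 0.17), aldh1a3 (-0.077 to 0.16), rdh10a (-0.035 to 0.14) and dhrs3a (-0.40 to 0.020). In brains it did so for aldh1a2 (-0.069 to 0.41), crabp2a (-0.18 to 0.13), cyp26c1 (-0.18 to 0.17), cyp26b1 (-0.41 to 0.023) and crabp1a (-0.21 to 0.0082). For the difference between tissues it did so for cyp26c1 (-0.17 to 0.20), rdh10a (-0.15 to 0.045), aldh1a2 (-0.024 to 0.57) and crabp1a (-0.018 to 0.20). Fitted without the filter, cyp26a1 in brains had a log2 fold change of -0.097 (SE 0.18, limma adjusted p = 0.999), and its difference between tissues was -0.52 (SE 0.37).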
